A study of Saccharomyces cerevisiae with 4 samples.

Results

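The 6 genes described here are the Sur7 family of Saccharomyces cerevisiae (SUR7, FMP45, YNL194C and PUN1) and the core genes of the eisosome (PIL1 and LSP1). They were selected by gene symbol, each had 1 probe set, and they make up 6 of the 5449 budding yeast genes measured. The selection was made with the differences between ebselen and DMSO already known, so the values of these 6 genes are a description and carry no test. Every direction given here rests on the deposited sample labels.

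The cultures were the wild-type strain W1588-4c grown in YPD, a rich glucose medium, to log phase (OD600 of 0.6 to 0.8). The treated cultures (2 arrays) received 100 µM ebselen, a selenium-containing compound that reacts with thiols, for 3 h. The control cultures (2 arrays) received DMSO, the solvent of ebselen, and the sample records used here state an exposure time for ebselen only. RNA was measured on Affymetrix Yeast Genome 2.0 arrays. The submitters call the 2 arrays of each group biological replicates but do not say how the cultures were separated, so p-values measure the spread between these arrays.

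Eisosomes are protein scaffolds under the yeast plasma membrane that hold it in furrow-shaped patches. The BAR-domain proteins Pil1 and Lsp1 form the scaffold, and the membrane over it is the MCC (membrane compartment of Can1), which collects nutrient transporters and the four-span proteins of the Sur7 family. The patches are tied to sphingolipid signalling, because the kinases Pkh1 and Pkh2 phosphorylate Pil1 and Lsp1, and the Slm proteins move from eisosomes to the TORC2 kinase complex when the membrane is stressed.

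Each value is a log2 expression level relative to the median of that probe set over the 4 arrays, so levels of different genes cannot be compared, and only differences between arrays can be read. Replicate arrays differed from each other with an SD over genes of 0.143 for ebselen and 0.116 for DMSO. In limma with Benjamini-Hochberg adjustment at 0.05, 71.7% of the 5449 genes passed, 33.0% as higher and 38.8% as lower in ebselen, and the median difference of all genes was −0.03. Scaling on hybridization controls (foreign transcripts spiked in just before hybridization) moved that median to −0.50 and the share of rises among the calls to 11.9%, against 45.9% in the deposited values. This scaling shifts every difference by −0.46. A sign that turns with it below thus leaves the gene's distance from the median gene unchanged. Differences are therefore read against that of the median gene. For 8 yeast control transcripts probed at both ends, the 5′ minus 3′ signal changed by −0.75 ± 0.26 (SD over transcripts) in ebselen against DMSO, and all 8 were negative. The part of this shift in the differences below was not tested. In RNA from a whole culture, fewer cells that express a gene and less RNA per cell cannot be told apart.

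The Sur7 family did not move as a block. FMP45 and YNL194C were far lower in ebselen, PUN1 was modestly lower, and SUR7 was higher, while the core genes PIL1 and LSP1 were both modestly lower by almost the same amount. The arrays of the groups did not overlap for any of the 6, beside 86.6% of all genes. With 2 arrays per group, an exact permutation test of a single gene could not go below p = 0.333 (two-sided).

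**Figure D1:**
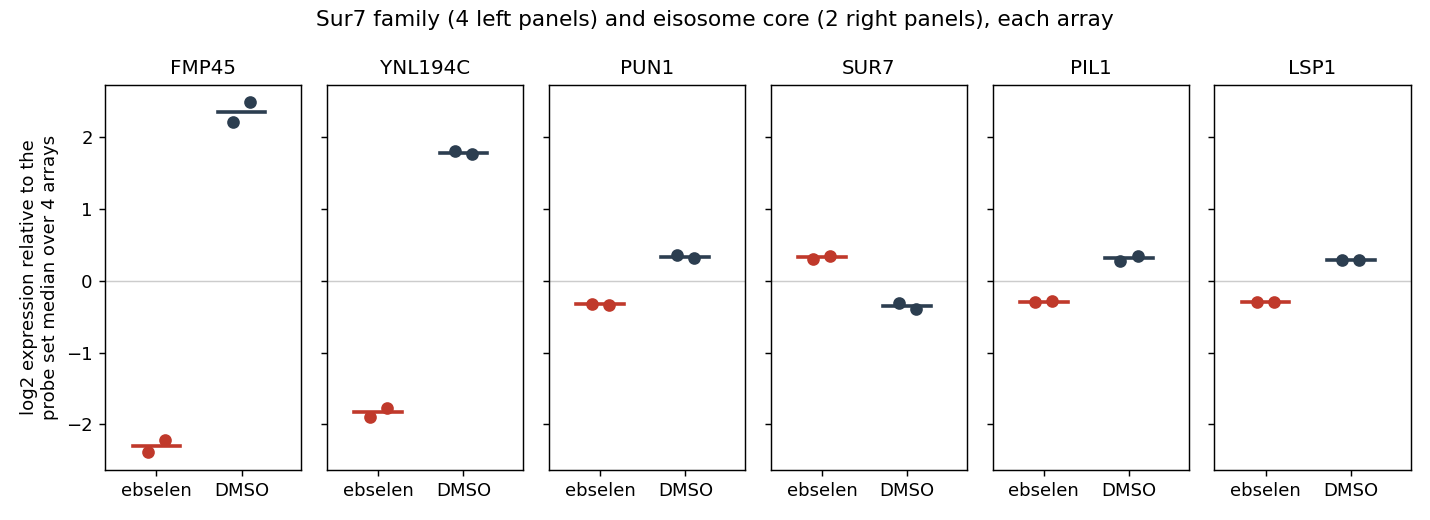
Log2 expression relative to the probe set median (vertical axis, one scale for all panels) in each array for the 6 genes; points are arrays and bars are means of the 2 ebselen and the 2 DMSO arrays. FMP45 and YNL194C are separated by several log2 units, SUR7 is the gene with ebselen above DMSO, and PIL1 and LSP1 look alike.

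FMP45 (YDL222C) encodes a Sur7-family membrane protein of the eisosome patches that is needed for normal sporulation and for the cell wall of stationary-phase cells. Its values were −2.39 and −2.22 in ebselen, against 2.22 and 2.49 in DMSO. Both ebselen arrays were lower than both DMSO arrays, with 4.44 log2 units between the nearest arrays of the groups. The means were −2.30 ± 0.12 in ebselen and 2.35 ± 0.19 in DMSO (SD, n = 2 each), a difference of −4.66, or 25.2-fold lower. This difference was 17.4 times the larger gap between replicates, and 2 of the 5449 genes had a lower one.

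YNL194C, the closest relative of FMP45 and likewise a membrane protein needed for normal sporulation, showed the same picture at a smaller size. Its values were −1.90 and −1.77 in ebselen, against 1.81 and 1.77 in DMSO. The groups lay 3.54 apart at their nearest arrays, and the DMSO arrays differed from each other by only 0.04. The difference between the means was −3.62, or 12.3-fold lower, which placed YNL194C as number 15 from the lowest among all genes. The fall was 1.04 log2 units larger for FMP45 than for YNL194C.

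PUN1 (YLR414C), a plasma membrane protein with a role in cell wall integrity, had values of −0.32 and −0.33 in ebselen, against 0.36 and 0.32 in DMSO. The replicates lay close together and the groups were 0.65 apart. The means were −0.33 ± 0.0051 in ebselen and 0.34 ± 0.023 in DMSO (SD, n = 2 each), a difference of −0.67, or 1.59-fold lower. A total of 15.0% of all genes were as low or lower.

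SUR7 (YML052W), the founding member of the family, was named as a suppressor of the defects of rvs mutants, which lack a yeast amphiphysin. It had values of 0.31 and 0.35 in ebselen, against −0.31 and −0.39 in DMSO. Both ebselen arrays were the high ones, which held for no other gene of the 6. The means were 0.33 ± 0.028 in ebselen and −0.35 ± 0.057 in DMSO (SD, n = 2 each), a difference of 0.68, or 1.60-fold higher, and 10.5% of all genes were as high or higher. The difference of SUR7 was 5.34 log2 units above that of FMP45 and 1.34 above that of PUN1.

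The scaffold genes PIL1 and LSP1 were both modestly lower. PIL1 (YGR086C), the main eisosome component, had values of −0.29 and −0.28 in ebselen, against 0.28 and 0.34 in DMSO, a difference of −0.60, or 1.52-fold lower. LSP1 (YPL004C), its paralog, had values of −0.29 and −0.29 in ebselen, against 0.30 and 0.29 in DMSO, a difference of −0.58, or 1.50-fold lower. The differences of these genes were 0.02 log2 units apart, less than the 0.06 between the DMSO arrays of PIL1. They ranked 969 (PIL1) and 997 (LSP1) from the lowest, with other genes between them, and PUN1 was close in size. Neither the PIL1 nor the LSP1 probe set is marked as shared with another transcript, but signal shared between these paralogs was not tested.

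**Figure D2:**
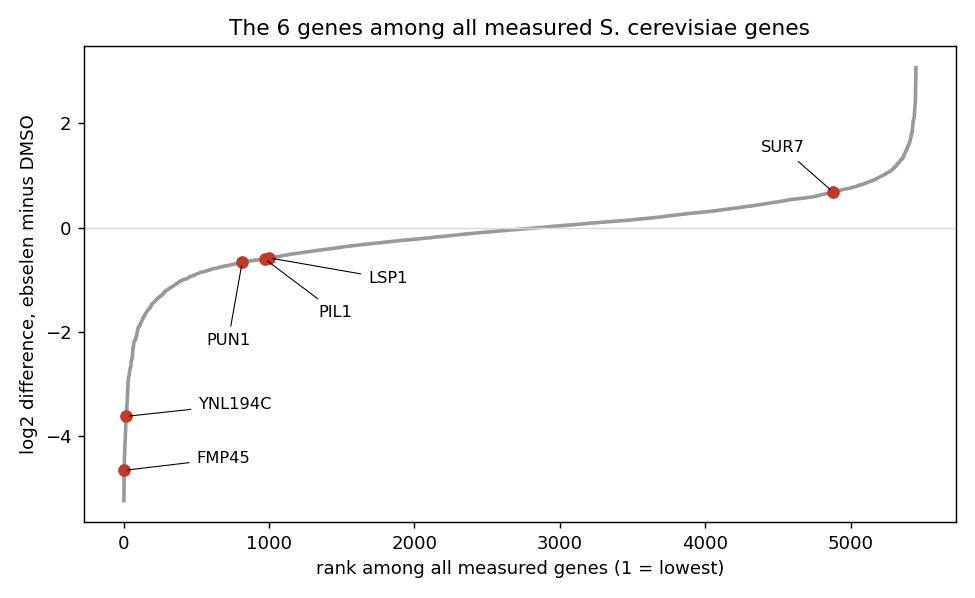
Log2 difference, ebselen minus DMSO (vertical axis), of all 5449 genes ordered from lowest to highest (grey line), with the 6 genes as red points. FMP45 (−4.66) and YNL194C (−3.62) sit at the low end of the curve, PUN1, PIL1 and LSP1 lie together between −0.67 and −0.58, and SUR7 (0.68) lies on the high side.

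The array also carries probe sets for fission yeast, which have no matching species in these cultures. The absolute difference of these 1746 probe sets was 0.13 at the median and 0.60 at the 99th percentile. FMP45, YNL194C, PUN1 and SUR7 exceeded that percentile, while PIL1 and LSP1 lay just under it. Among all genes, 69.6% had a smaller absolute difference than PIL1 and 74.3% a smaller one than PUN1, so many other genes exceeded it too. These genes were chosen with their differences known, so passing the percentile is a description only. Quantile normalization gave smaller falls for FMP45 (−3.58, or 12.0-fold) and YNL194C (−2.82, or 7.05-fold). It was run on values already centred on each probe set's median, and it gives every array the same distribution of values. The deposited differences ran from −5.24 to 3.07 over all genes, and such unequal extremes are drawn together by this step. Scaling on the hybridization controls gave 0.21 for SUR7, −1.13 for PUN1, −1.07 for PIL1 and −1.05 for LSP1.

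By Euclidean distance over the 4 array values, the genes with the profile most like FMP45 were SPG4, a gene of stationary-phase survival (distance 0.321), SPS100, a spore wall gene (0.365), and the less well studied YOR338W (0.379). Their differences were −4.62, −4.36 and −4.56. The genes nearest to YNL194C were STP4, which encodes a zinc-finger protein (distance 0.0819), RGS2, a regulator of G-protein signalling (0.157), and SPI1, a cell wall protein gene (0.197). Their differences were −3.59, −3.56 and −3.51. FMP45 and YNL194C were not among each other's 3 nearest genes. With 4 arrays in 2 groups, this distance is mostly a measure of how equal the differences are.

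Among 16 measured genes of eisosome and MCC proteins outside the 6, 9 fell and 2 rose, with 5 not past the test and a median difference of −0.24, beside 38.8% and 33.0% of all genes and a median of −0.03. PKH2, one of the kinases that phosphorylate Pil1 and Lsp1, fell most. Its values were −0.78 and −0.80 in ebselen, against 0.84 and 0.78 in DMSO, a difference of −1.60 ± 0.053 (limma SE). The values of the related kinase gene PKH1 were 0.17 and −0.08 in ebselen, against 0.01 and −0.01 in DMSO, so that the ebselen arrays lay on either side of DMSO (0.04 ± 0.091, not past the test).

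Assembly factors of the eisosome fell by smaller amounts. EIS1, which is needed for proper eisosome assembly, had values of −0.32 and −0.28 in ebselen, against 0.39 and 0.28 in DMSO, a difference of −0.63 ± 0.061. This was close in size to PIL1 and LSP1. SEG1, which stabilises eisosomes and shapes their length, fell by 0.32 on the log2 scale, and its paralog SEG2 fell by 0.31. The difference of YGR130C, an eisosome component, was −0.19 ± 0.071 and missed the test (limma adjusted p = 0.0542), but passed without ebselen replicate 1 (−0.28, adjusted p = 0.0146).

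The 4-span membrane proteins Nce102 and Fhn1, a pair of paralogs in the MCC, went in different directions. FHN1 had values of 0.52 and 0.53 in ebselen, against −0.55 and −0.52 in DMSO, a difference of 1.06 ± 0.051. Its arrays did not overlap, and it had the largest rise in the list. NCE102, whose protein acts upstream of the Pkh kinases as a sphingolipid sensor, had values of −0.12 and −0.08 in ebselen, against 0.08 and 0.14 in DMSO, a difference of −0.21 ± 0.055 (adjusted p = 0.0186). Without ebselen replicate 1, DMSO replicate 1 and DMSO replicate 2, the difference of NCE102 was −0.19, −0.24 and −0.18. Its call was lost in the methods' t-test (adjusted p = 0.0602) and with all probe sets in one fit (limma adjusted p = 0.0731). A difference between FHN1 and NCE102 was not tested.

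MDG1, a plasma membrane protein of G-protein signalling, fell by 1.15 on the log2 scale. Of the flavodoxin-like genes whose products sit in the patches, PST2 (−0.78 ± 0.050) and YCP4 (−0.72 ± 0.076) fell, while RFS1 had a difference of 0.06 ± 0.053 and did not pass. MSC3 fell by 0.27 (a difference of −0.22 without DMSO replicate 2), a call lost in the methods' t-test (adjusted p = 0.0585). XRN1, the cytoplasmic 5′ to 3′ RNA exonuclease, rose by 0.22 ± 0.068 (0.18 without ebselen replicate 1 and 0.16 without DMSO replicate 1). Its call was lost in the methods' t-test (adjusted p = 0.138) and with the replicate number as a block (limma adjusted p = 0.0779), leaving 1 rise in the list. Its difference turned to −0.24 with scaling on hybridization controls. The phosphoinositide-binding TORC2 effectors SLM1 (−0.0021 ± 0.054) and SLM2 (−0.12 ± 0.062) did not pass, although SLM2 and YGR130C passed as lower with centring on the fission yeast probe sets (adjusted p of 0.0357 and 0.0250).

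**Figure D3:**
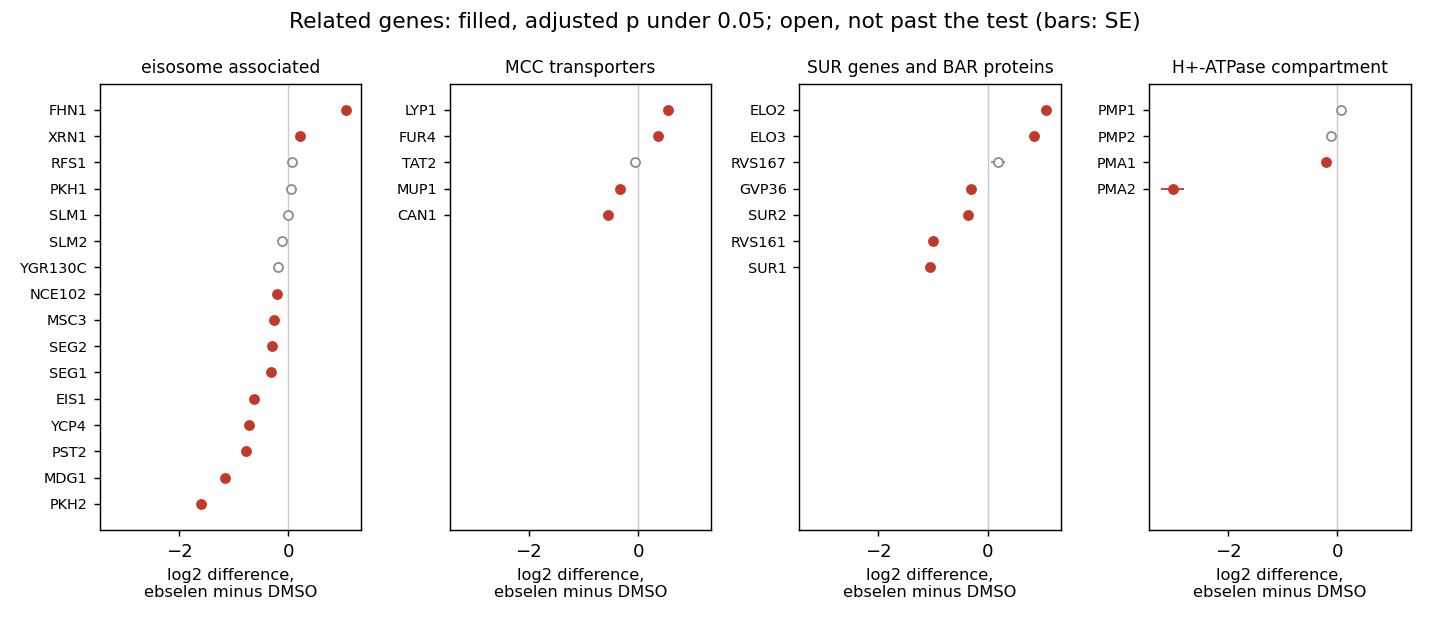
Log2 difference, ebselen minus DMSO (horizontal axis, one scale for all panels), with limma SE as bars for genes of 4 lists; filled points passed limma's test at an adjusted p of 0.05, open points did not. PKH2 (−1.60) and FHN1 (1.06) are the ends of the eisosome list, and PMA2 (−3.02) stands apart in the last panel.

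Of 5 measured transporters known to gather in the MCC, 2 rose, 2 fell and 1 did not pass, beside 33.0% of all genes higher and 38.8% lower. Their median was −0.06 (0.0049, with the sign turned, without ebselen replicate 1). CAN1, the arginine permease that gives the compartment its name, had values of −0.44 and −0.22 in ebselen, against 0.22 and 0.23 in DMSO, a difference of −0.55 ± 0.085. MUP1, a methionine permease, fell by 0.34. LYP1, the lysine permease, rose by 0.55 ± 0.078 and FUR4, the uracil permease, by 0.37 ± 0.057, although scaling on hybridization controls left 0.08 for LYP1 and turned FUR4 to −0.10. The tryptophan permease gene TAT2 had a difference of −0.06 ± 0.072 and did not pass. In the methods' t-test CAN1, MUP1 and LYP1 did not pass, leaving FUR4 as 1 rise.

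SUR7 shares its name with other suppressors of rvs mutants, which encode enzymes of sphingolipid and very long chain fatty acid synthesis. Of 7 genes in the list of these suppressors and of BAR-domain genes, 2 rose, 4 fell and 1 did not pass, with a median of −0.31, beside 33.0% higher, 38.8% lower and a median of −0.03 over all genes. The fatty acid elongase genes ELO2 (also FEN1; 1.07 ± 0.050) and ELO3 (also SUR4; 0.85 ± 0.051) rose. ELO2 had values of 0.54 and 0.53 in ebselen, against −0.54 and −0.53 in DMSO. SUR1, for a subunit of the enzyme that mannosylates inositol phosphorylceramide, fell, with values of −0.51 and −0.51 in ebselen, against 0.51 and 0.56 in DMSO (−1.05 ± 0.052). SUR2, the sphingoid base hydroxylase gene, fell by 0.36. 

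The amphiphysin genes RVS161 and RVS167 encode partners in a heterodimer that acts in endocytosis. RVS161 had values of −0.48 and −0.52 in ebselen, against 0.48 and 0.52 in DMSO, and fell by 1.01 on the log2 scale (SE 0.052). The values of RVS167 were −0.02 and 0.29 in ebselen, against −0.13 and 0.02 in DMSO, and overlapped (0.19 ± 0.12, not past the test, but past it without ebselen replicate 1, at 0.34 with an adjusted p of 0.0216). GVP36, a BAR-domain protein gene of the Golgi, fell by 0.31.

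Of 12 measured genes of TORC2, its target kinases and the Orm regulators of sphingolipid synthesis, 3 rose, 3 fell and 6 did not pass, beside 33.0% of all genes higher and 38.8% lower. Their median was −0.03 (0.0034 without DMSO replicate 2 and 0.0075 with quantile normalization). The Orm paralogs differed in sign, with 0.57 ± 0.061 for ORM1 and −0.48 ± 0.053 for ORM2, both past the test. With scaling on hybridization controls ORM1 was 0.11 and no longer passed. YPK2, a kinase downstream of TORC2 and Pkh, fell by 0.83, and TOR2 rose by 0.39, although its difference was −0.07 with scaling on hybridization controls.

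Of 23 genes of the endocytic coat and actin patch, a separate set of sites in the plasma membrane, 5 rose, 7 fell and 11 did not pass, beside 33.0% higher and 38.8% lower over all genes. The median of −0.07 was −0.013 without ebselen replicate 1 and 0.013 without DMSO replicate 2. The early coat protein gene EDE1 (0.75 ± 0.055) and the clathrin adaptor gene YAP1802 (0.72 ± 0.096) had the largest rises. VRP1, the yeast verprolin (−0.98 ± 0.16), and CLC1, the clathrin light chain (−0.83 ± 0.053), had the largest falls. Without DMSO replicate 1, 3 genes of this list rose, and in the methods' t-test 1 rose and 3 fell, without YAP1802 and VRP1.

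The compartment of the plasma membrane H+-ATPase, which is separate from the MCC, had 4 measured genes, of which 2 fell, 0 rose and 2 did not pass (in limma, 0 rises also at an unadjusted p under 0.05, and 0 in the methods' t-test), with a median of −0.17. Over all genes 33.0% were higher and 38.8% lower. PMA1, the main H+-ATPase gene, fell by 0.21, with differences of −0.22 without DMSO replicate 1 and −0.20 without DMSO replicate 2. Its call was lost with all probe sets in one fit (limma adjusted p = 0.0598), leaving 1 fall. PMA2, the minor isoform, had values of −1.95 and −1.31 in ebselen, against 1.31 and 1.45 in DMSO, a difference of −3.02 ± 0.21. The ATPase genes are close relatives, and signal shared between their probe sets was not tested. The small regulatory proteolipid genes PMP1 (0.06 ± 0.058) and PMP2 (−0.12 ± 0.061) did not pass, although PMP2 passed as lower with centring on the fission yeast probe sets (adjusted p = 0.0345).

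The nearest gene on each side of the 6 genes, was taken from the RefSeq gene order. Of 12 neighbours, 11 were measured, of which 3 rose, 3 fell and 5 did not pass, beside 33.0% of all genes higher and 38.8% lower. HBT1, a gene of polarised cell shape next to FMP45 on the same strand, fell with it. Its values were −1.25 and −1.20 in ebselen, against 1.20 and 1.40 in DMSO, a difference of −2.53 ± 0.079. On the other side of FMP45, the telomere-binding protein gene CDC13 had a difference of −0.07 ± 0.051 and did not pass.

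**Figure D4:**
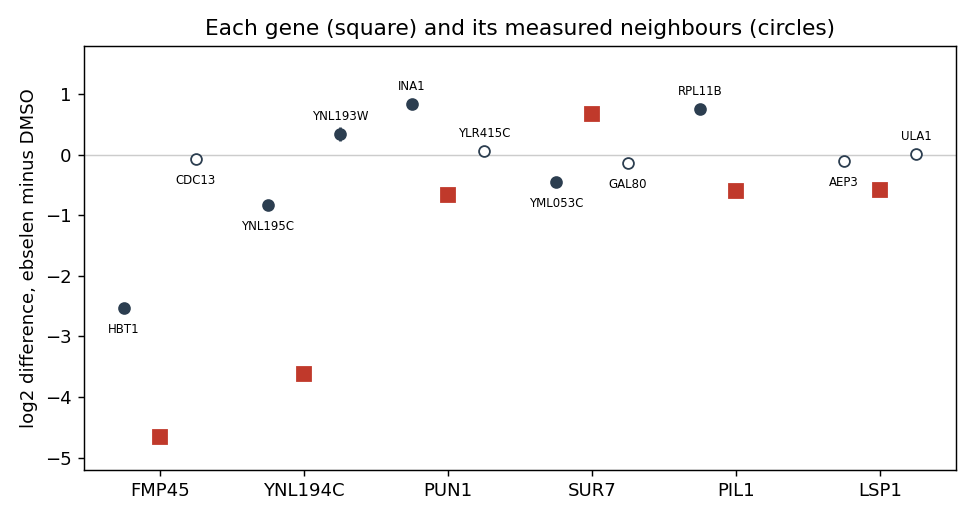
Log2 difference, ebselen minus DMSO (vertical axis), for each of the 6 genes (squares) and its measured neighbours (circles with limma SE; filled, past the test; open, not past it). HBT1 lies low beside FMP45 (−2.53), and INA1 (0.83) and RPL11B (0.75) lie high beside genes that were lower.

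In the deposited values, both genes whose start faces that of a Sur7-family gene lay on the other side of 0 from it. How often this holds for facing genes over the whole genome was not counted. YML053C, which shares its upstream region with SUR7, had values of −0.28 and −0.20 in ebselen, against 0.20 and 0.22 in DMSO, and fell by 0.45 (SE 0.056) where SUR7 was higher. YNL193W, which shares its upstream region with YNL194C, rose by 0.34 ± 0.12 (limma adjusted p = 0.0468). Without ebselen replicate 1, DMSO replicate 1 and DMSO replicate 2, the difference of YNL193W was 0.17, 0.30 and 0.38. It turned to −0.12 with scaling on hybridization controls. The call was weak and was lost in the methods' t-test (adjusted p = 0.232) and with all probe sets in one fit (limma adjusted p = 0.109). ULA1, which faces LSP1 and encodes part of the enzyme that activates the ubiquitin-like protein Rub1, had a difference of 0.0071 ± 0.050 and did not pass.

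The other neighbours followed no common direction. YNL195C, on the far side of YNL194C, fell by 0.83, and INA1, which faces the end of PUN1, rose by 0.83 ± 0.055 beside the lower PUN1. RPL11B, a ribosomal protein gene beside PIL1, rose by 0.75 ± 0.053. GAL80 (−0.13), the repressor of galactose genes next to SUR7, did not pass (adjusted p = 0.0359 with centring on the fission yeast probe sets), and neither did YLR415C (0.06), next to PUN1, or AEP3 (−0.10), next to LSP1. The non-coding transcript SUT125 beside PIL1 was not analysed here.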

How the data were processed

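RNA of 4 yeast cultures (2 ebselen, 2 DMSO) was measured on Affymetrix arrays. RMA was the authors' normalization of the scanner files, per the submitters' processing notes; the design text adds a trial version of GeneSpring 7.2 and a t-test. The values that the authors deposited are taken as log2, which RMA gives; the log base was not stated, and fold changes rest on it. Each probe set's median over the 4 arrays is 0. Brightness is thus unknown, and precision is limited by how few arrays there are.

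Of 10928 probe sets, 5498 matched 5449 genes of a RefSeq table (R64) through the platform annotation, 12 symbols were updated, and probe sets of a gene were averaged. Another 1746 annotated probe sets were taken as fission yeast. Groups were compared with limma 3.58.1 in R 4.3.3 (lmFit, eBayes, two-sided, Benjamini-Hochberg over 5449 genes at 0.05). The fit had 2 residual and 3.13 prior degrees of freedom. A trial used data simulated from limma's own model, with far fewer changed genes than were called here, so it does not test these calls. Lists were described by counts and medians. Flanking genes were the nearest in the RefSeq order, with strand read from systematic names. YKL050C, of the eisosome list, was not used here.

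The 6 genes and all lists were chosen with earlier results of these data known. By rule the text names all genes of 4 lists, the 2 largest called rises and falls of the TORC2 and endocytic lists, all flanking genes, and the 3 nearest profiles of each of the 6 genes that differed by at least 1. Alternatives were 4 other scalings (that on hybridization controls used the median of 27 probe sets), a block for the replicate number, leaving out each array, 1 probe set per gene, all probe sets in one fit, a threshold of 0.01 and the methods' t-test. Leaving out an array leaves 1 array in its group, so a call can be lost although the difference holds. Promoter and protein sequences were not used here. Figures were drawn with matplotlib 3.10.9.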

Additional observations from a re-analysis of the deposited data

How the results depend on the processing

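The direction of all 6 genes was the same under every alternative run. The replicate block, 1 probe set per gene, all probe sets in one fit and the methods' t-test leave these differences unchanged by construction. Leaving out 1 array could not turn them either, because the arrays of the groups did not overlap for any of the 6. Centring on the genes' median, centring on the fission yeast probe sets and control scaling shifted every difference by 0.03, −0.07 and −0.46, respectively. These shifts were smaller in size than the difference of each of the 6 genes, so no direction could turn under them. Quantile normalization was the only alternative whose outcome was not fixed in this way. Quantile normalization gave 0.76 for SUR7, −3.58 for FMP45, −2.82 for YNL194C, −0.61 for PUN1, −0.55 for PIL1 and −0.53 for LSP1. Scaling on hybridization controls gave 0.21 for SUR7, −5.12 for FMP45, −4.09 for YNL194C, −1.13 for PUN1, −1.07 for PIL1 and −1.05 for LSP1. Centring on the fission yeast probe sets gave 0.61 for SUR7, −3.69 for YNL194C, −0.73 for PUN1, −0.67 for PIL1 and −0.65 for LSP1, and centring on the genes' median gave −0.63 for PUN1, −0.57 for PIL1 and −0.55 for LSP1. Leaving out 1 array gave 0.64 to 0.72 for SUR7, −4.79 to −4.52 for FMP45, −3.68 to −3.56 for YNL194C, −0.68 to −0.65 for PUN1, −0.63 to −0.57 for PIL1 and −0.585 to −0.577 for LSP1.

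Scaling on hybridization controls, which shifts every difference by −0.46, gave 492 rises and 3659 falls over all genes. Under it the eisosome list had 1 rise and 14 falls, the transporters 0 rises, the TORC2 list 0 rises and 10 falls, the endocytic list 1 rise and 19 falls, the H+-ATPase list 4 falls and the neighbours 8 falls. Differences turned to −0.42 for PKH1, −0.24 for XRN1, −0.41 for RFS1, −0.10 for FUR4, −0.074 for TOR2, −0.28 for RVS167, −0.40 for PMP1, −0.12 for YNL193W, −0.40 for YLR415C and −0.46 for ULA1. In the methods' t-test after Benjamini-Hochberg, 1233 genes rose and 1410 fell; the eisosome list had 1 rise, the transporters 1 rise and 0 falls, and the endocytic list 1 rise and 3 falls. Of 51 single genes followed, 10 lost their call in that t-test (NCE102, MSC3, XRN1, CAN1, MUP1, LYP1, VRP1, YAP1802, GVP36 and YNL193W). The eisosome list also had 1 rise with fission yeast centring and with all probe sets in one fit, where the H+-ATPase list had 1 fall. Leaving out 1 array gave 1 to 2 rises in the eisosome list, 3 to 5 in the endocytic list and 1 to 2 falls in the H+-ATPase list. The cause of these changes was not tested, apart from the common shift under control scaling.

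The replicate numbers are not shown to pair the arrays (correlation over genes of the replicate differences −0.08). With the replicate number as a block, 1670 genes rose and 1971 fell, the eisosome list had 1 rise, and XRN1 and YNL193W lost their calls.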
